A study of Drosophila melanogaster with 3 samples.

Results

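The regions described here are candidate binding regions of the Drosophila muscle regulator Nautilus (Nau) that came just below the threshold of the authors' reproducible list. They were chosen by the deposited signal value, in the list of 30000 regions that the authors made from all replicates together and in which the regions that passed the irreproducible discovery rate (IDR) threshold stand at the top. That list was divided from the top into bands, each with as many regions as passed the threshold. The members are the second band, 12.6% of the 30000, and are called the subthreshold regions. The first band is called the IDR regions and the third the next band. The number of regions in a band and its first and last ranks are given with the processing. Because signal chose the members, signal values and ranks are given here as a description and with no test, and tests were made only on position and sequence, which played no role in the choice.

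The study has 1 group with 3 biological replicates: whole Drosophila melanogaster embryos, male and female pooled, aged 4 to 24 h, of 1 transgenic line in which nau carries GFP at its C terminus (nau-eGFP). Chromatin was sheared by sonication, and the tagged protein was recovered with an antibody to GFP and its DNA sequenced (ChIP-seq). The antibody field of the labels reads nau, while the sample descriptions give anti-GFP. The chromatin of a whole embryo is a mixture of many cell types, of which muscle is one, and a sample of another genotype or age was not analysed here.

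Nau is the fly member of the MyoD family of basic helix-loop-helix (bHLH) transcription factors, which pair with the widely expressed bHLH protein Daughterless. In the embryo, nau is expressed in some of the founder cells from which the body wall muscles grow, and takes part in giving individual muscles their identity. MyoD family proteins bind E-boxes, short sites of the form CANNTG, and the MyoD proteins of vertebrates favour the form CAGCTG.

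To show the sequence found at these summits, 4 windows of 201 bp are printed, 100 bp on either side of the summit. Windows to print were sought on most chromosome arms but not on all. On the arms searched, the window shown for each muscle list is the highest-ranked member in an intron or between genes that holds CAGCTG. Early mesoderm and myoblast fusion genes had no such window on those arms, and members elsewhere were not considered for printing. All are read on the + strand of dm6, and the capitals mark CAGCTG. Ptx1 encodes a homeodomain factor, Prm the thick filament protein paramyosin, sr the tendon cell regulator Stripe and Fas2 the cell adhesion molecule Fasciclin 2.

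Ptx1 intron, chr3R:30917116-30917316: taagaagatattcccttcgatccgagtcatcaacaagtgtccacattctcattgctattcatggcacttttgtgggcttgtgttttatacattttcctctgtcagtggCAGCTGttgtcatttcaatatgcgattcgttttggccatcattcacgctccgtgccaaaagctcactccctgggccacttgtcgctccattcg

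Prm, 1933 bp from a transcription start, chr3L:8747143-8747343: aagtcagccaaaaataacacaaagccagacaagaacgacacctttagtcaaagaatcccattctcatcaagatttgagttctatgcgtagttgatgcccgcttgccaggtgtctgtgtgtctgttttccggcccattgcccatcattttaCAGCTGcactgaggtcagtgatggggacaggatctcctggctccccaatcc

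sr intron, chr3R:18115130-18115330: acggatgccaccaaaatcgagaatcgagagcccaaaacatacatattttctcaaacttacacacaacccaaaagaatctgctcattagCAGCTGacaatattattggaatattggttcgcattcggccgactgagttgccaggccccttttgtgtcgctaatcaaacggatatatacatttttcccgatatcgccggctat

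Fas2 intron, chrX:4190072-4190272: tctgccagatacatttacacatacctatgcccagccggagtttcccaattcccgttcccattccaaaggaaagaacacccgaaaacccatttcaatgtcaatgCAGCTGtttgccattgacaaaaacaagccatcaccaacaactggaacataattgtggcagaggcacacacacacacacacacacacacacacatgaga

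Each of these windows holds 1 CAGCTG. It starts 3 bp after the summit at Fas2, 8 bp after it at Ptx1, 50 bp after it at Prm and 12 bp before it at sr. At Ptx1 and Fas2 the site reads AACAGCTG on one of the strands. The Fas2 region had pooled rank 3771 and ranks 3884, 3849 and 7795 in the lists of replicates 1, 2 and 3. The Prm region had pooled rank 4817 and replicate ranks 4511, 3188 and 14453. The replicates were far apart for the Ptx1 region, of pooled rank 6087, at ranks 3747, 23272 and 13726. The sr region, of pooled rank 6566, had replicate ranks 9323, 11415 and 6460 and lay 215 bp from an IDR summit.

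The subthreshold regions had lower signal than the regions above them by the way they were chosen, with no step at either end. Signal, the authors' measure of enrichment on a scale that the sources used here do not name, ran from 166 at the top of the members to 106 at the bottom, with a median of 129. The median was 244 in the IDR regions and 91.7 in the next band. The deposited -log10 q value lay between 1.68 and 3.23 in the members, with a median of 2.38, and was 3.16 or more in the IDR regions. Almost all members had the commonest width of 460 bp: 74 (1.96%) were narrower, against 1554 (41.3%) of the IDR regions.

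The ends of the range fell between regions of nearly equal signal. The first members, all at a signal of 166, lay at the promoter of Dnaaf5 beside NK7.1 (3R, 14361739 to 14362198), near CG5958 (2L), at the promoters of Septin2 and Srp72 (3R), in Fas2 (X) and at the promoters of Axud1 and Rab5 (2L). Just above them, also at 166, the last IDR regions lay in CG32816, msi and Bicra, in intergenic DNA near yrt, and at GstD1 and GstD2. The last members, at 106, lay in introns of Atpalpha, hts, Grip and CG32365 and at the promoter of HemK1. The first regions of the next band, also at 106, lay at Jupiter and dally and near CG5122, CG46443 and CG7255. The length of the authors' list differed between genome builds: on the older build dm3 it held 4987 regions.

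Within the first and second bands of the replicates' own lists, the subthreshold regions recurred less than the IDR regions and more than the next band. A recurrence was counted where a replicate had a summit within 100 bp within those bands. This cut ends at the last rank of the members. A region of the next band thus counted only where a replicate ranked it higher than the pooled list did. Replicates 1, 2 and 3 recovered 1880 (49.9%), 1835 (48.7%) and 1999 (53.1%) of the members, a mean of 50.6% ± 2.25 (SD, n = 3). The same count was 91.7% ± 0.683 for the IDR regions and 17.6% ± 0.868 for the next band. All 3 replicates recovered 350 members (9.29%), against 2942 IDR regions (78.1%) and 3 regions of the next band (0.0796%). Of the members, 1558 were recovered by 2 replicates, 1548 by 1 and 311 (8.26%) by none. When 1 replicate was left out and both others had to recover a member, the share was 22.9% without replicate 1, 24.5% without replicate 2 and 21.8% without replicate 3. The pooled list contains the reads of the replicates, so these counts are no independent support.

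**Figure D1:**
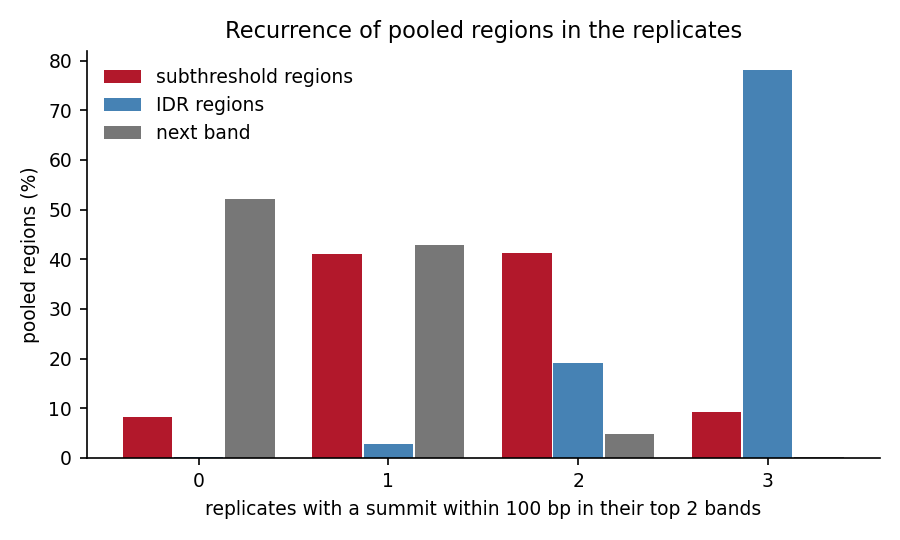
Share of pooled regions (y axis, %) by the number of replicates that hold a summit within 100 bp in the first or second band of their own lists (x axis), for the subthreshold regions (red), the IDR regions (blue) and the next band (grey). Most subthreshold regions fall at 1 or 2 replicates, 78.1% of the IDR regions at 3, and 52.1% of the next band at 0.

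The recurrence fell steeply within the range itself. In 4 equal parts of the members, from the strongest to the weakest, all 3 replicates recovered 27.8%, 8.17%, 0.850% and 0.318%. The share recovered by none was 0.743%, 2.76%, 7.65% and 21.9% in the same order. Over whole replicate lists, 2446 members (64.9%) had a summit in all 3 and 6 had one in none. All 3 whole lists held 3292 IDR regions (87.4%) and 1556 regions of the next band (41.3%). The members' median rank was 6635.5 in replicate 1, 6900 in replicate 2 and 6615 in replicate 3, a mean of 6717 ± 159 (SD, n = 3). The spread of 1 member over the replicates was wider than the range of pooled ranks that selected it: among those listed in all 3, the median distance between the best and the worst rank was 6867.5. The replicate summits lay close to the pooled ones, at a median of 24, 18 and 20 bp.

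A few members ranked far higher in the replicates than in the pooled list. The best median rank belonged to an intron of Diap1, an inhibitor of apoptosis (3L, 16045408 to 16045570, pooled rank 4801), with ranks 2200 and 1860 in replicates 1 and 2 and no listing in replicate 3. An intron of CG46339 (3R, pooled rank 4225) had ranks 1944, 8363 and 2276. An intron of bab1, a BTB-domain transcription factor (3L, 1086251 to 1086689, pooled rank 4161), had ranks 3765, 1998 and 2294. The region near CG5958 (2L, pooled rank 3769) had ranks 2410, 3528 and 2140, and the promoter of CG3625 (2L, pooled rank 3962) had ranks 16100, 2464 and 2437. Only the bab1 and CG5958 regions and the promoter of CG13501 beside Snp (2R, pooled rank 7014; replicate ranks 3526, 2235 and 2940) were in the first band of all 3 replicates. These 3 summits lay 201, 200 and 214 bp from an IDR summit, so each is a further summit beside a stronger one.

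To show such a pair, the stretch from 20 bp before one summit to 20 bp after the other is printed for bab1. It is read on the + strand of dm6, and the capitals mark 5 bases centred on each summit, with the IDR summit, of rank 417, at position 21 and the subthreshold summit at position 222. It holds no CAGCTG and 3 forkhead words, defined with the other words later.

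bab1 intron, chr3L:1086437-1086678: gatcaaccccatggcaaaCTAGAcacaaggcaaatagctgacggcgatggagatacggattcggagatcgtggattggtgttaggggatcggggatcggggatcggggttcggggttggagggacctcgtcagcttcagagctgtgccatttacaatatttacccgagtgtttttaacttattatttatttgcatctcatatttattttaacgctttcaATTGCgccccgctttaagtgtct

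About 1 in 10 subthreshold summits stood directly beside an IDR summit. Within 300 bp of one lay 387 members (10.3%, 95% Wilson interval 9.34 to 11.3), against 293 (7.78%, 6.97 to 8.68) of the next band. That stretch around the IDR summits covers 1.62% of the bases of the chromosomes, so the members' share was 6.33 times the share of bases. The distances were narrowly set: 330 of the 387 (85.3%) were from 200 to under 250 bp, the median was 204 bp, and only 17 members lay at over 300 and under 500 bp. No list held 2 summits closer than 199 bp, which was the smallest gap in the pooled list and in each replicate list. Of the members, 18 repeated the interval of an IDR region with a further summit. Within 1000 bp lay 686 members (18.2%, 17.0 to 19.5), against 580 (15.4%, 14.3 to 16.6) of the next band and 4.99% of bases. The other 3081 members stood apart from the reproducible regions. Fisher's exact tests of members against the next band, which were not planned, gave p = 0.000181 at 300 bp and p = 0.00121 at 1000 bp. They count each summit as independent, although neighbouring summits share reads and sequence, so these shares are given as a description.

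**Figure D2:**
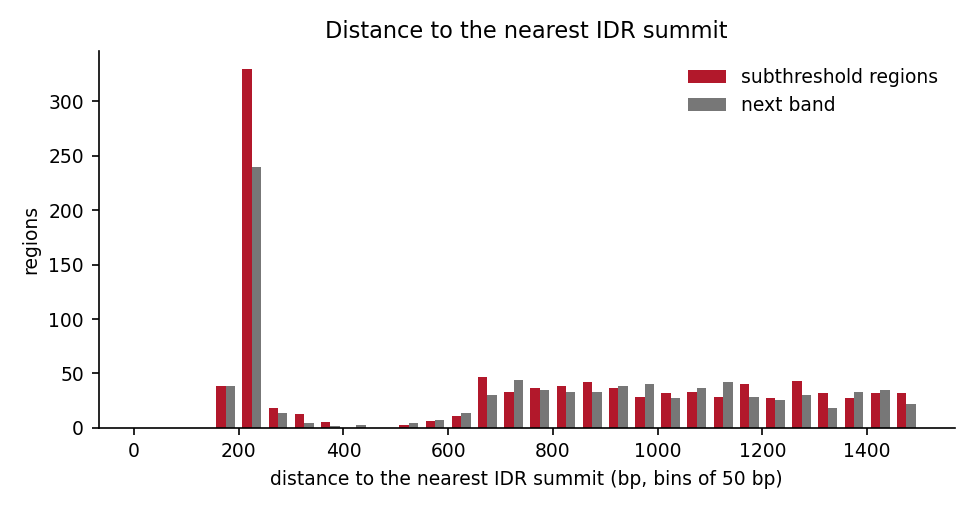
Number of regions (y axis) by distance from their summit to the nearest IDR summit (x axis, bins of 50 bp), for the subthreshold regions (red) and the next band (grey). In the bin that starts at 200 bp stand 330 subthreshold regions and 240 of the next band; no later bin holds more than 47 subthreshold regions.

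The 387 neighbouring summits differed in makeup from the 3380 other members. Of the neighbours, 40.8% (36.0 to 45.8) lay at a promoter, against 31.8% (30.2 to 33.4) of the others. A GAGA word (GAGAGAG on either strand, the kind of site bound by the GAGA factor, which opens chromatin) was within 100 bp of 52 neighbouring summits (13.4%, 10.4 to 17.2), against 229 of the others (6.78%, 5.98 to 7.67). For CAGCTG the shares were 13.4% and 13.9%, with overlapping intervals. The split at 300 bp was chosen with the distances in view. Fisher's exact tests made on it, adjusted over 6 features, gave p = 0.00141 for promoters, 8.20e-05 for GAGA words and 0.955 for CAGCTG, and describe the split without supporting it. All 3 replicates recovered 7.24% of the neighbours and 9.53% of the others.

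One neighbouring summit with a GAGA word is printed to show such a case, and was chosen after its values were seen. It lies in an intron shared by CG43675 and drn (pooled rank 5835; replicate ranks 14837, 14153 and 3007), 199 bp from an IDR summit of rank 1021. It is read on the + strand of dm6 with the summit at position 101, and the capitals mark the GAGA word, which lies on the other strand.

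CG43675 and drn intron, chr3R:9353546-9353746: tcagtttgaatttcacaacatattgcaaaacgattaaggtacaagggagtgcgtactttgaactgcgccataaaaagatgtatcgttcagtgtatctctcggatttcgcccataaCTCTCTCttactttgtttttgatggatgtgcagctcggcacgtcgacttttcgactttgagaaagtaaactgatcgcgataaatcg

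Most subthreshold summits lay in introns and at promoters, and the promoter share was between those of the bands above and below. At a promoter, within 500 bp of the transcription start site (TSS) of a protein-coding gene, lay 1232 members (32.7%, 95% Wilson interval 31.2 to 34.2), against 1435 IDR regions (38.1%) and 962 of the next band (25.5%). Such promoters make up 11.5% of the bases, so the members' share was 2.86 times theirs. The difference from the IDR regions was -5.39 percentage points (p = 7.88e-06 by a 2-sided Fisher's exact test with Benjamini-Hochberg adjustment), and that from the next band was 7.17 points (adjusted Fisher p = 6.04e-11). The second bands of the replicates' own lists gave 33.3%, 35.1% and 33.8%, against 39.8%, 41.3% and 40.0% for their first bands, and were lower in 3 of 3 replicates by a mean of -6.30 ± 0.177 points (SD, n = 3). Against the next band of the same lists they were higher in 3 of 3, by 7.32 ± 1.28 points. With 3 replicates no exact paired permutation test can give a p under 0.25, so none is given, and regions are not biological replicates.

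The promoter share was not even within the range. Of the 4 equal parts of the members, the strongest had 36.0% and the weakest 26.9%. The stronger members, down to the middle rank, differed from the IDR regions by -2.57 points (adjusted Fisher p = 0.216). With 1 replicate left out, members and IDR regions had to recur in both others, which left 821 to 924 members. The difference between members and IDR regions was then -1.57 points without replicate 1 (adjusted Fisher p = 0.778), -4.60 without replicate 2 (0.0723) and -2.28 without replicate 3 (0.336). The median distance to a TSS was 1644 bp in the members, 1132 bp in the IDR regions and 2191 bp in the next band. Close to the TSS, members and IDR regions had similar shares: 13.8% and 13.9% lay within 100 bp, against 9.93% of the next band.

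Intergenic DNA, coding exons and 3′ UTRs held larger shares of the members than of the IDR regions. Introns held 1682 members (44.7%, 43.1 to 46.2), against 42.7% of the IDR regions (adjusted Fisher p = 0.126) and 47.9% of the next band (adjusted Fisher p = 0.0130), beside 37.1% of bases. Intergenic DNA held 643 members (17.1%), against 14.9% of the IDR regions (adjusted Fisher p = 0.0323) and 20.2% of the next band (adjusted Fisher p = 0.00187), beside 24.9% of bases. Coding exons held 22 members (0.584%), against 8 IDR regions (0.212%, adjusted Fisher p = 0.0323) and 32 of the next band (0.849%, adjusted Fisher p = 0.383), beside 13.3% of bases. Of the members 56 (1.49%) lay in 3′ UTRs, against 33 IDR regions (0.876%, adjusted Fisher p = 0.0323), and the share of bases was 5.16%. The intergenic call ended with promoters of 250 bp (adjusted Fisher p = 0.243), and the calls for coding exons and 3′ UTRs with promoters of 1000 bp (0.293 and 0.110). All 3 ended among the stronger members (adjusted Fisher p = 0.200 to 0.310) and without any 1 replicate (0.184 to 0.778). In all, 4 of the 7 kinds of location (57.1%) differed between members and IDR regions, and 3 of 7 (42.9%) between members and the next band. The 5′ UTR share of 0.982% and the share of 2.52% in other exons passed neither test.

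**Figure D3:**
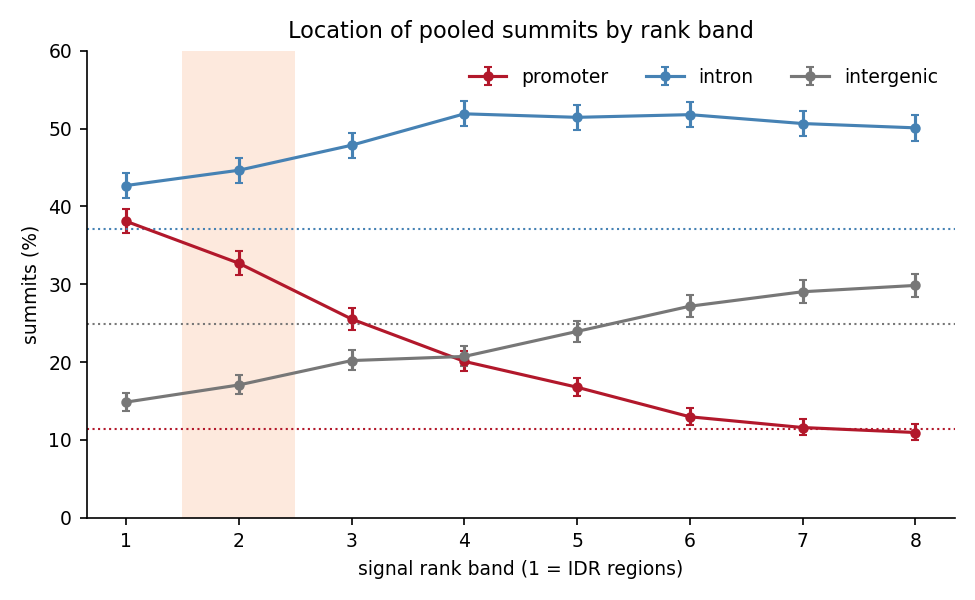
Share of pooled summits (y axis, %) at promoters (red), in introns (blue) and between genes (grey) in consecutive bands of the list (x axis; the last band is shorter), with 95% Wilson intervals; dotted lines give each location's share of bases, and the shaded band is the subthreshold regions. The promoter share is 38.1% in the first band and 32.7% in the shaded band, and reaches the share of bases, 11.5%, at bands 7 and 8.

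The E-box CAGCTG was more frequent in the subthreshold regions than in the next band, and its share passed no test against the IDR regions in windows of 100 bp on either side of the summit. Such a window held CAGCTG in 522 members (13.9%), against 570 IDR regions (15.1%) and 372 of the next band (9.88%). In 6542 flanking windows, centred 1000 bp to either side of the members and free of strong summits, the share was 8.30%. The ratio of members to IDR regions was 0.916 (Fisher's exact test, p adjusted over 23 words = 0.475), and their difference of -1.27 percentage points had a 95% interval of -2.86 to 0.316. Against the next band the ratio was 1.40 (adjusted Fisher p = 2.40e-06), a difference of 3.98 points with an interval of 2.52 to 5.44. Against the flanks the ratio was 1.67 in the pooled list and 1.61 ± 0.0319 in the lists of single replicates (SD, n = 3).

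The bands of the replicates' own lists gave CAGCTG shares of 12.7%, 12.9% and 13.5% in the second band, against a mean of 14.9% in the first. They were lower in 3 of 3 replicates, by a mean of -1.82 ± 0.383 points (SD, n = 3). The second band was above the third, which had 10.9% in each replicate, in 3 of 3 by a mean of 2.16 ± 0.406 points. In the 4 equal parts of the members the share was 14.5%, 14.4%, 14.1% and 12.3% from the strongest to the weakest, with overlapping intervals. By place, introns had 13.9% in the members, 15.5% in the IDR regions and 9.37% in the next band. The ratio of members to the next band in introns passed the test (adjusted Fisher p = 0.000378). At promoters the shares were 14.9%, 16.2% and 13.2% (adjusted Fisher p against the next band = 0.330), and in intergenic DNA 11.2%, 11.8% and 8.28% (0.156). In windows of 250 bp on either side the ratio of members to IDR regions was 0.890 and passed the test (adjusted Fisher p = 0.0202), and in windows of 50 bp on either side the ratio to the next band was 1.28 and did not (0.0890). Leaving out replicates 1, 2 and 3 in turn gave ratios to the next band of 3.97, 1.92 and 1.19 (adjusted Fisher p = 0.564, 0.734 and 1.00), with 58 to 75 regions of that band left. Over 500 bp from a TSS the ratio to the next band was 1.53 and passed (adjusted Fisher p = 1.42e-06). In windows of 35 to 45% GC it was 1.40 and passed (adjusted Fisher p = 0.00368).

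**Figure D4:**
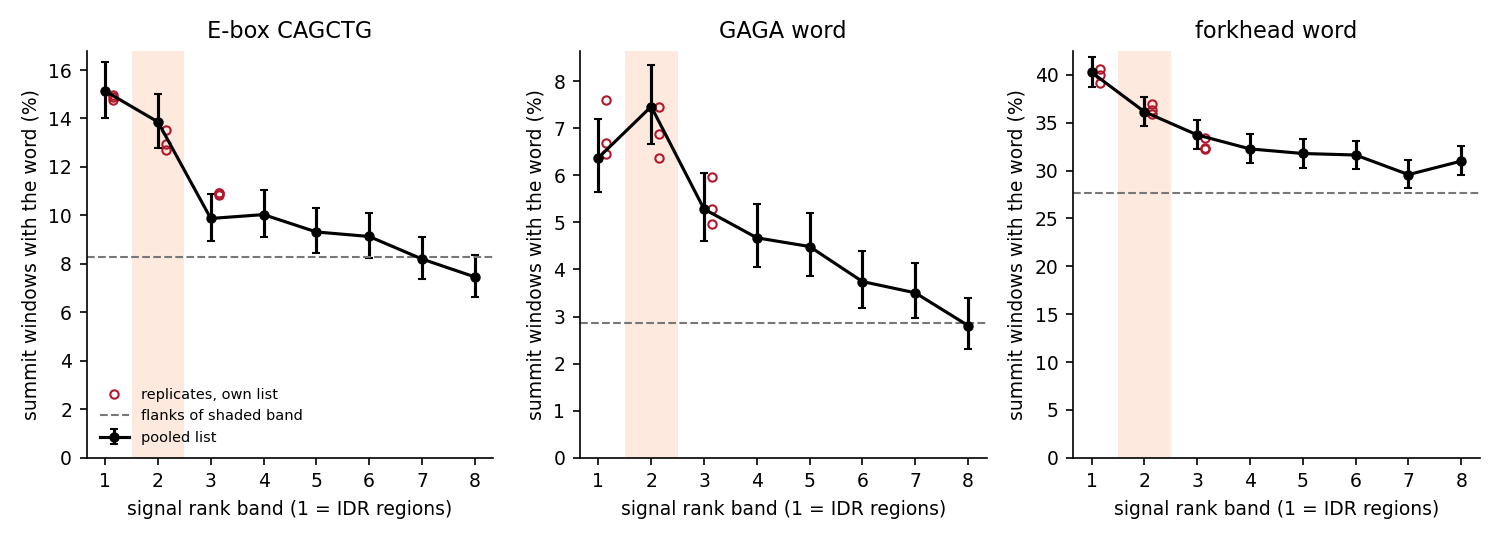
Share of summit windows of 201 bp (y axis, %, from 0) that hold the E-box CAGCTG (left), the GAGA word (middle) or the forkhead word (right), in consecutive bands of the list (x axis). Black points are the pooled list with 95% Wilson intervals, red circles the bands of the replicates' own lists, dashed lines the flanks, and the shaded band the subthreshold regions. CAGCTG stands at 13.9% in the shaded band, 15.1% before it and 9.88% after it; the GAGA word is at 7.46%, 6.37% and 5.28% and the forkhead word at 36.1%, 40.2% and 33.7%.

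CAGCTG was drawn towards the summit, less sharply than in the IDR regions. Within 20 bp of the summit its density in the members was 0.881 per kb, against 0.422 per kb in the members at 401 to 600 bp. The IDR regions had 1.17 and 0.478 per kb at the same distances, and the next band 0.680 and 0.425. A second CAGCTG in the window was rare: 42 members (1.11%) had more than 1, against 58 IDR regions (1.54%) and 35 of the next band (0.929%). The bases beside the site were not evenly used. Read on both strands, AACAGCTG made up 18.4% of 1108 half-sites in the members, against 21.0% of 1240 in the IDR regions, 16.9% of 804 in the next band and 8.27% of 1136 in the flanks. It stood in 175 member windows (4.65%, 4.02 to 5.37), against 228 IDR windows (6.05%), 118 windows of the next band (3.13%) and 1.36% of flanks, which the members exceeded by 3.41 times. This octamer was chosen after its counts were seen, so no test is given.

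The 9 other E-boxes passed no test against either band. CAGATG had the largest ratio to the IDR regions of the 10, at 7.83% of members and 6.56% of IDR windows (ratio 1.19, adjusted Fisher p = 0.345), and 8.49% of the next band. CATATG was in 7.96% of members, 8.28% of IDR regions and 7.70% of the next band, against 6.34% of flanks. CAAATG, the commonest, was in 20.9%, 20.2% and 20.2%, against 22.0% of flanks. The E-box CACCTG, favoured by Snail-type repressors, was in 6.13%, 6.53% and 6.24%, against 7.28% of flanks. CAGCTG was the E-box with the highest ratio of members to flanks of the 10.

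GAGA words, counted in windows of 100 bp on either side of the summit, were in 281 members (7.46%, 6.66 to 8.34), against 240 IDR regions (6.37%, 5.63 to 7.20), 199 of the next band (5.28%, 4.61 to 6.04) and 2.86% of flanks. The difference from the next band passed the test (ratio 1.41, adjusted Fisher p = 0.00148), while the ratio to the IDR regions of 1.17 did not (adjusted p = 0.345; difference 1.09 points, interval -0.0584 to 2.24). The replicates' own lists gave 6.90% ± 0.545 in the second band and 6.91% ± 0.602 in the first (SD, n = 3), and the second band was higher than the next band in 3 of 3. The call against the next band was lost in windows of 50 bp on either side (ratio 1.35, adjusted Fisher p = 0.189) and in windows of 35 to 45% GC (1.51, adjusted p = 0.0631). Against the IDR regions the direction turned with the window. It was above 1 in windows of 50 bp on either side (ratio 1.49, adjusted Fisher p = 0.0339) and below 1 in windows of 250 bp on either side (0.831, adjusted p = 0.00699). With members over 1000 bp from any IDR summit, the ratio in the narrow window was 1.40 (adjusted Fisher p = 0.222). Against the next band the ratio was 0.580 without replicate 1, 1.26 without replicate 2 and 0.594 without replicate 3 (adjusted Fisher p = 0.790, 1.00 and 0.731), with 58 to 75 regions of that band left.

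The place of the GAGA words differed from that in the IDR regions. Counted per kb with overlapping copies, their density in the members was 1.09 within 20 bp of the summit, 1.02 at 51 to 100 bp and 0.415 at 401 to 600 bp. The IDR regions had 0.524 per kb within 20 bp, 1.17 at 101 to 200 bp and 0.629 at 401 to 600 bp. The density was thus highest within 20 bp of the summit in the members, but it did not fall evenly. It was 0.743 per kb at 21 to 50 bp, below the 1.02 at 51 to 100 bp. In the IDR regions it was highest at 101 to 200 bp. These densities were not tested. The next band had 0.803 per kb within 20 bp, 0.581 at 51 to 100 bp and 0.406 at 401 to 600 bp. At promoters 10.7% of members held the word, against 8.85% of IDR regions and 8.63% of the next band, and in introns 6.36%, 4.79% and 4.44%.

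**Figure D5:**
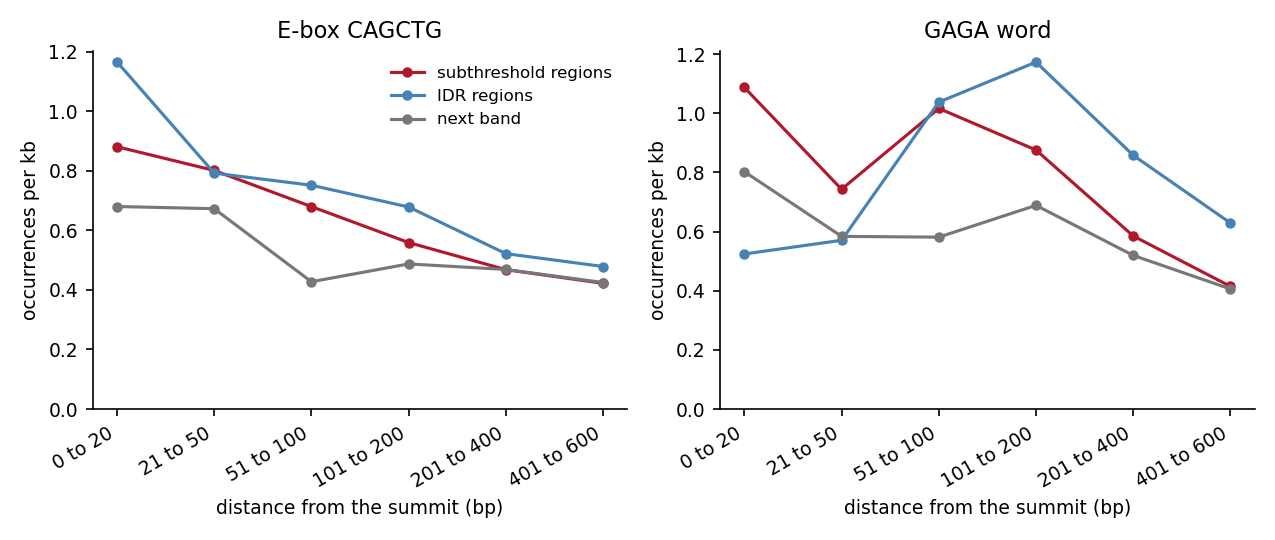
Occurrences per kb (y axis) of CAGCTG (left) and the GAGA word (right) by distance from the summit (x axis, bp) in the subthreshold regions (red), the IDR regions (blue) and the next band (grey). Within 20 bp of the summit CAGCTG stands at 0.881, 1.17 and 0.680 per kb and the GAGA word at 1.09, 0.524 and 0.803 per kb.

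Forkhead words (GTAAACA, its variant GTAAATA, the form ATAAACA and the form ATAAATA, on either strand), the kind of site bound by forkhead factors such as Biniou of the visceral mesoderm, were in 1361 members (36.1%, 34.6 to 37.7), against 1516 IDR regions (40.2%) and 1270 of the next band (33.7%). The difference from the IDR regions passed the test (ratio 0.898, adjusted Fisher p = 0.00597), as the 1 call among the 23 words searched (4.35%), and the ratio to the next band was 1.07 (adjusted p = 0.170). In the second band of each replicate's own list the share was lower than in the first band in 3 of 3, by -3.54 ± 0.196 points (SD, n = 3). At promoters the shares were 31.2% in members and 37.7% in IDR regions (adjusted Fisher p = 0.00403). In introns they were 40.1% and 44.3% (adjusted Fisher p = 0.0668), and in intergenic DNA 36.2% and 35.5% (0.810). The windows also differed in base composition, with a median GC of 39.8% in the members, 37.8% in the IDR regions and 40.3% in the next band. In windows of 35 to 45% GC the ratio was 0.911 and did not pass (adjusted Fisher p = 0.372). Nor did it pass in windows of 250 bp on either side (0.992, adjusted Fisher p = 1.00) or over 500 bp from a TSS (0.922, adjusted p = 0.315). The ratio passed in windows of 50 bp on either side (0.826, adjusted Fisher p = 0.000123). It also passed for members over 1000 bp from an IDR summit (0.902, adjusted Fisher p = 0.0189). Against the stronger part of the IDR regions it passed as well (0.872, adjusted Fisher p = 0.00282). Without replicates 1, 2 and 3 it was 0.991, 0.946 and 0.936 and did not pass (adjusted Fisher p = 0.957, 0.685 and 0.850).

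Against the next band, 2 of 23 words passed (8.7%), CAGCTG and the GAGA word. Promoter words were well above the flanks at low shares: the DNA replication-related element (DRE), TATCGATA, was in 57 members (1.51%), 1.59% of IDR regions and 1.38% of the next band, against 0.535% of flanks. The core promoter word Ohler 1 was in 20 members (0.531%), 0.743% of IDR regions and 0.398% of the next band, against 0.107% of flanks. The site of Mef2, a factor of muscle differentiation, was in 4.65% of members, 4.27% of IDR regions, 4.14% of the next band and 3.52% of flanks. The Scalloped word (ACATTCC or GCATTCC), the TEAD-type site, was in 3.03% of members, 3.48% of IDR regions and 4.19% of the next band, against 4.46% of flanks, and did not pass against the next band (adjusted Fisher p = 0.0599). The words for GATA factors (AGATAA, 13.9% of members), Tinman (TCAAGTG, 3.88%), Su(H) (GTGGGAA, 2.44%), AP-1 (TGACTCA or TGAGTCA, 2.07%), Zelda (CAGGTAG, 0.743%), Ets factors (CCGGAAG, 0.690%) and Grainyhead (AACCGGTT, 0.398%) passed neither test.

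The subthreshold regions reached 2356 of 13945 protein-coding genes (16.9%), counting a gene with a member summit inside the gene or within 2 kb before its start. The IDR regions reached 2497 genes by the same count. Of the genes with an IDR summit, 1198 (48.0%) also held a member, and these are also 50.8% of the genes with a member. Of the 11448 genes without an IDR summit, 1158 (10.1%) held a member. Many members were thus further summits of genes already reached: 2235 (59.3%) lay in the window of a gene with an IDR summit, against 57.2% of the next band (unadjusted Fisher p = 0.0684) and 30.3% of bases. The genes that the members added had a median length of 3435.5 bp, against 2166 bp for all genes. With replicate 1, 2 or 3 left out, requiring recurrence in both others left 789, 840 and 757 genes with a member, and 316, 345 and 335 added genes.

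The 5 muscle lists (identity, fusion, sarcomere, attachment and neuromuscular junction) and the early mesoderm list all had member shares above the share of all genes. So did lists of other tissues. A member lay at 9 of 24 muscle identity genes, 5 of 20 early mesoderm genes, 8 of 21 fusion genes, 14 of 37 sarcomere genes, 17 of 26 attachment genes and 13 of 22 neuromuscular junction genes. It also lay at 5 of 9 Hox genes, 10 of 23 genes of the Notch pathway and 23 of 92 genes of cytosolic ribosomal proteins. Neural genes (3 of 22, 13.6%) and fat body and hemocyte genes (3 of 19, 15.8%) were below the 16.9% of all genes. Gut genes (3 of 14, 21.4%) and epidermal genes (3 of 14, 21.4%) were above it. So were forkhead factors (4 of 15, 26.7%) and bHLH genes (4 of 16, 25%). Summits of the next band lay at 6 of 24 identity, 6 of 20 early mesoderm and 6 of 21 fusion genes. They also lay at 16 of 37 sarcomere, 13 of 26 attachment and 10 of 22 junction genes. Other counts of the next band were 6 of 9 Hox, 10 of 23 Notch and 10 of 92 ribosomal protein genes. Of all 13945 genes, 2176 held a summit of the next band. The lists differed in gene length. Median lengths were 14451.5 bp for attachment, 37203.5 bp for the neuromuscular junction and 26862 bp for Hox genes, but 3269 bp for the Notch pathway and 14330 bp for neural genes, and the part of length in these counts was not tested. The lists were written with earlier results in view, so the counts are descriptive.

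Of the 23 genes that members added to the 5 muscle lists, 15 (65.2%) had their best member at a promoter, against 67.0% of all 1158 added genes. At 12 of the 23 (52.2%) it was the gene's own promoter, against 50.6% of all added genes. Beside the 10.1% of all genes without an IDR summit, members added 6 of 18 identity genes, 3 of 14 fusion genes, 6 of 24 sarcomere genes, 4 of 10 attachment genes, 4 of 10 junction genes, and none of 10 early mesoderm genes. With replicate 1, 2 or 3 left out and recurrence in both others required, the counts were 1, 1 and 2 for identity and 2, 3 and 1 for fusion. They were 1 in each case for attachment, and 2, 1 and 1 for the junction. The identity genes added by all members were sd, the TEAD partner of Vestigial, the Iroquois genes caup and ara, the Pax6 gene ey, mid and kn. The sd promoter region (X, 15805462 to 15805921, pooled rank 3966) had replicate ranks 6206, 6269 and 3491. The caup promoter region (3L, 12609297 to 12609756, pooled rank 4974) was unlisted in replicate 1 and had ranks 5768 and 21832 in replicates 2 and 3, and the ara region (3L, pooled rank 6091) was listed only in replicate 2, at 5956. The ey region (4, 695738 to 696197, pooled rank 5256), at the promoter of the neighbouring gene myo and 1721 bp from a TSS of ey, held CAGCTG and had replicate ranks 4257, 4657 and 12879.

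Fusion genes were reached at hbs, a cell surface protein of fusing myoblasts, Vrp1, a regulator of actin polymerisation, and the small GTPase gene Rac2. The hbs intron region (2R, 15034621 to 15035080, pooled rank 3844) had replicate ranks 2505, 3249 and 6459. The Vrp1 promoter region (2R, pooled rank 4498) had ranks 5498 and 5559 in replicates 1 and 3 and was unlisted in replicate 2. The Rac2 promoter region (3L, pooled rank 5809) had ranks 5078, 8068 and 6615. At hbs and Rac2 all 3 replicates listed the region.

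The added sarcomere genes were Prm, the actin gene Act87E, the tropomyosin gene Tm2, the myosin light chain gene Mlc2, and the giant kinases Strn-Mlck and bt. The Act87E promoter region (3R, 13425468 to 13425927, pooled rank 6254) had replicate ranks 6080, 4980 and 10174. The Tm2 promoter region (3R, 15309685 to 15310144, pooled rank 6579), with a GAGA word, had ranks 15778 and 7066 in replicates 1 and 2 and was unlisted in replicate 3. The Mlc2 region (3R, pooled rank 6983), at the promoter of Rsod and 3007 bp from a TSS of Mlc2, had ranks 5565, 8833 and 18062. The Prm, Act87E and Mlc2 regions were each listed in all 3 replicates. With replicate 1, 2 or 3 left out and recurrence in both others required, the number of added sarcomere genes was 0, 0 and 2, against 6. The same requirement cut all added genes from 1158 to 316, 345 and 335, and no difference from that cut was tested. With all members and each summit given to the nearest TSS, the number of added sarcomere genes was 3.

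Muscle attachment genes gained members at Tsp, the thrombospondin of tendon matrix, the laminin gene LanB2, slow, which acts with thrombospondin, and the vinculin gene Vinc. The Tsp promoter region (2L, 6708942 to 6709401, pooled rank 4666) held CAGCTG and had replicate ranks 9756, 1946 and 10994. The LanB2 promoter region (3L, pooled rank 4866) had ranks 2122 and 15301 in replicates 1 and 3 and was unlisted in replicate 2. The slow promoter region (3L, 4384038 to 4384497, pooled rank 5292) was more even, at ranks 7170, 4575 and 7377. The Vinc intron region (X, pooled rank 7496) had ranks 8944 and 6063 in replicates 1 and 3 and was unlisted in replicate 2. The spread over replicates was thus wider at Tsp and LanB2 than at slow.

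At the neuromuscular junction, members were added at Tl, the Toll receptor expressed in some muscles, the repellent Sema2a, the adhesion protein gene Con and the glutamate receptor subunit GluRIIC. The Tl intron region (3R, 26821117 to 26821576, pooled rank 3789) had replicate ranks 6545, 5847 and 2638. The Sema2a promoter region (2R, pooled rank 4521) had ranks 9425, 6275 and 3912, and the Con intron region (3L, pooled rank 5260) had 9701, 8200 and 4019. All these ranks were better in replicate 3 than in replicates 1 and 2. The GluRIIC promoter region (2L, pooled rank 7272) was unlisted in replicate 1 and had ranks 7251 and 8637 in replicates 2 and 3.

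Notch signalling, which sets muscle founder cells apart from their neighbours, gained 4 of 15 genes without an IDR summit, beside 10.1% of all such genes. They were N, the receptor, mib1, a ubiquitin ligase for its ligands, and the bHLH repressors E(spl)mbeta-HLH and E(spl)mdelta-HLH. With replicate 1, 2 or 3 left out and recurrence in both others required, the count was 1, 1 and 2. The promoter region of E(spl)mbeta-HLH (3R, 26005888 to 26006347, pooled rank 3862) had ranks 3964 and 4847 in replicates 1 and 3 and was unlisted in replicate 2. That of mib1 (3L, pooled rank 4229) had replicate ranks 5689, 2270 and 11876. The best of 4 members at N was at the promoter (X, 3134348 to 3134807, pooled rank 5129), with ranks 13909, 4964 and 3992. That of E(spl)mdelta-HLH (3R, pooled rank 5953) had ranks 9525 and 2288 in replicates 1 and 2 and was unlisted in replicate 3.

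Members also added genes to other lists, beside the 10.1% of all genes without an IDR summit. Among Hox genes they were lab (intron, 3R, pooled rank 4038; replicate ranks 2869, 5642 and 7482), also in the gut list, and pb (intron, 3R, pooled rank 5691; ranks 7204, 8455 and 4062), 2 of 6. Single genes were added for forkhead factors, at FoxL1 (pooled rank 6576; ranks 5558, 9264 and 10681), for neural genes, at fne, an Elav-type RNA-binding protein gene (pooled rank 5013; ranks 4386, 5970 and 6323), and for the epidermis, at the chitin synthase gene kkv (pooled rank 4154; unlisted in replicate 1, then 4957 and 5795). None of 11 bHLH genes and none of 15 fat body and hemocyte genes without an IDR summit were added. These lists are short beside that share, and no difference from it was tested. Ribosomal protein genes, of which 59 of 92 held an IDR summit, gained 6 of 33, among them RpL6, RpS6 and RpS26. The RpS6 promoter region (X, 7901172 to 7901290, pooled rank 4923) had replicate ranks 6173, 5458 and 3688, and that of RpL6 (3R, pooled rank 4088) had 3777, 4652 and 12885. The region at RpS26 (2L, pooled rank 5231; ranks 7681, 3986 and 8878) lay in a 3′ UTR.

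The nau gene itself held 1 member, in an intron (3R, 23716520 to 23716979, pooled rank 6965). It was listed only in replicate 2, at rank 12198, and held neither CAGCTG nor a forkhead or GAGA word. The gene also held 1 IDR region, of rank 684, and 2 regions of the next band.

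The genes with the most members were long and also held several IDR regions. The most were at rdx, an adaptor for protein degradation in Hedgehog signalling, with 17 members, 9 IDR regions and 10 regions of the next band over 64997 bp on 3R. The gene bun, for a TSC22-domain protein, held 14 members and 15 IDR regions over 91072 bp on 2L. The fusion gene kirre, for an immunoglobulin-domain protein of founder cells, held 13 members and 13 IDR regions over 394149 bp on X. The genes hth, for a homeodomain partner of Hox proteins, and Pdp1, for a bZIP factor, each held 13 members and 8 IDR regions. Most of these members were intronic, with 15 of 17 at rdx, 11 of 14 at bun and 11 of 13 at kirre. All 3 replicates recovered 2 of the members at rdx, 1 at bun and none at kirre, hth and Pdp1. Per 100 kb of gene, members numbered 26.2 at rdx, 23.3 at Pdp1, 15.4 at bun, 9.85 at hth and 3.30 at kirre. Whole chromosomes held 23.9 to 31.4 members per megabase, so the count at kirre was close to that level. The part of gene length in these counts was not tested.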

How the data were processed

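Anti-GFP ChIP-seq of whole nau-eGFP embryos gave 3 biological replicates of 1 group, per the labels, with sonicated fragments of 200 to 800 bp. The ages are those of the source name, 4 to 24 h, since the age label was implausible. The authors deposited lists of 30000 regions per replicate and for the pooled replicates, made with a control file per the read-me files, and IDR-thresholded lists. In these lists the signal value, the -log10 q value and the summit offset are as the authors deposited them. Neither the aligner nor the peak caller is given in the sources used here, and nor is the threshold of the IDR. Lists of fixed length say nothing of depth: read depth is unknown, and all intervals are for counting error only. On dm6 the IDR list holds 3767 regions and was identical to the top of the pooled list, so bands of 3767 regions were used: the IDR regions, the members (3767 regions, ranks 3768 to 7534), the next band (ranks 7535 to 11301), and the same ranks in each replicate's list. The middle rank of the members is 5650. Signal values were used only to rank and describe regions within a list.

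Positions are 1-based on dm6, with the genes of 6 chromosome arms from BDGP6.54 (Ensembl release 115). Sequence was read from the RefSeq copy of the same Release 6 genome. A summit took the first of 7 classes: promoter, 5′ UTR, then 3′ UTR, exon with coding sequence, any other exon, intron, or intergenic. Words were 10 E-boxes and 13 others, on both strands. Flanking windows lay 1000 bp from a member summit with no IDR or member summit within 300 bp. The test was Fisher's exact test, 2-sided, and p-values were adjusted by Benjamini-Hochberg over classes, over words or over the 9 pairs of word and location, at a threshold of 0.05. Tests of distances to IDR summits, of neighbouring against other members, of chromosomes, of windows with more than 1 CAGCTG and of gene windows were not planned. All tests treat regions as independent, although some share a locus, and the test was tried on artificial counts with known answers.

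The members and the 15 gene lists were chosen with earlier results of these data known. Of 376 list names, 374 genes were matched, 6 through synonyms. Named genes were those of the 5 regions on either side of each end of the range, up to 4 genes per list by rank with a member and no IDR summit, the 4 genes with the most members and the 5 members with the best median replicate rank; Pdp1 tied with the fourth gene. Further members of a list named in the text, and nau, were added after their values were seen. Alternatives changed the match distance, the part of the lists searched, promoter and window width, flank position, gene assignment, the members or IDR regions compared, and the replicates used. Computation used Python 3.11.15, matplotlib 3.10.9, pandas 2.3.3, scipy 1.17.1 and numpy 2.4.6.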

Additional observations from a re-analysis of the deposited data

How the results depend on the processing

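No paired analysis was possible because the study has 1 group, so the replicate numbers pair no samples. The share of members recovered in every replicate, 9.29%, was 4.11% with a match distance of 50 bp and 17.5% with 200 bp. It was 0.0796% in the first band of each replicate and 64.9% over the whole lists, and 21.8 to 24.5% without a replicate. The share near an IDR summit, 18.2% at 1000 bp, was 10.7% at 500 bp, 33.4% at 2000 bp and 16.8 to 19.7% without a replicate. The promoter difference from the IDR regions, -5.39 points, was -2.57 for the stronger members alone and -4.60 to -1.57 without a replicate, and no longer passed. The CAGCTG ratio to the IDR regions, 0.916, was 0.890 in windows of 250 bp on either side, where it passed, and 0.823 to 0.929 without a replicate. The ratio to the next band, 1.40, was 1.28 in windows of 50 bp on either side and 1.19 to 3.97 without a replicate, and passed in none of these. Without a replicate, 58 to 75 regions of the next band were left. The ratio passed over 500 bp from a TSS (1.53) and over 1000 bp from an IDR summit (1.41). It also passed for the weaker members (1.34), in windows of 35 to 45% GC (1.40) and in windows of 250 bp on either side (1.20). The ratio to the flanks, 1.67, was 1.82 with flanks at 500 bp and 1.88 outside coding exons. Genes with a member numbered 757 to 840 without a replicate, against 2356, and added genes 316 to 345, against 1158. GAGA turned below 1 against the IDR regions in windows of 250 bp on either side (0.831), and against the next band without replicate 1 (0.580) and without replicate 3 (0.594), though not without replicate 2 (1.26). The cause was not tested. Leaving out a replicate and requiring recurrence in both others also cuts the members to 821 to 924. The comparisons with the next band under other settings, those by GC, the narrow window away from IDR summits and the distances without a replicate were chosen after the data were seen.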

Other observations

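Per megabase, the subthreshold regions lay on every chromosome analysed, with 31.4 regions on 3L, a close 31.2 for chromosome 4 and 30.8 for 2L, then 27.5 for 3R, 26.7 for the X and the lowest value of 23.9 for 2R. The small and largely heterochromatic chromosome 4 stood out against the IDR list. It held 42 members, against 18 IDR regions (13.4 per megabase) and 49 regions of the next band. In the replicates' own lists, the second bands put 32, 33 and 27 regions there, against 19, 21 and 25 in the first bands, higher in 3 of 3 replicates. The means were 30.7 ± 3.21 in the second bands and 21.7 ± 3.06 in the first (SD, n = 3). Fisher's exact test of members against IDR regions, adjusted over 6 chromosomes, gave p = 0.0154 for chromosome 4, but the chromosome was picked out after the counts were seen.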
